A study of Homo sapiens with 52 samples.

Results

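The regions described here are the stretches of the KBM7 genome that were called in contact with the nuclear lamina in 1 single cell and in none of the others. They were chosen by their values: a 100 kb bin was taken when its ratio of observed to expected signal (OE) was at least 1 in exactly 1 cell, on the autosomes and on the joined chromosomes 9:22 and 22:9 of this line. No bin of chromosome 8 had a value, so that chromosome is not covered. By this rule 1289 of the 25097 bins with a value were single-cell bins, or 5.14% of them, and nothing can be read from that share itself. An OE under 1 in the other cells is no proof that they lacked contact. They held 0.327% of the 393836 contacts called on these chromosomes.

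KBM7 is a human cell line from a chronic myeloid leukaemia. The labels describe 52 single cells of clone 14, ploidy 2N, all expressing Dam fused to Lamin B1, with methylation induced by 0.5 nM Shield1 for 15 h before sorting of the smallest 2% of cells that carried both Fucci cell cycle markers. These cells form 1 group, they come from 1 clone, and no separate cultures are named, so all of them together stand for 1 sample, and spreads between cells are described without p-values. Cell 47 was not analysed here, and 51 cells were used. In 2N cells a contact of either homologue gives signal, and the 2 homologues cannot be told apart.

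The lamina is a protein meshwork under the inner nuclear membrane. Lamina-associated domains are broad, mostly gene-poor and transcriptionally quiet stretches of chromosome that lie against it, and regions between them tend to be gene-rich and more often found inside the nucleus. In DamID the bacterial methyltransferase Dam marks adenines in GATC near its fusion partner, and the marks accumulate while the fusion protein is present. A called contact is therefore a record of nearness during the induction, and unfused Dam, which marks open chromatin in the nuclear interior, was not used here as a control.

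The depth behind the calls differed between cells. Whole reads could be recovered from the ratios, and a cell had 50978 to 316463 of them, with a median of 142540. A bin of median expected number (318, the whole number by which a bin's reads were divided) held 2.14 reads at an OE of 1 in the shallowest cell, number 9, and 13.3 in the deepest, number 26. After every cell was thinned to 50978 reads, 540 of the 1289 single-cell bins were still contacted in exactly 1 cell, 434 of them in the same cell. Another 262 then had no contact and 487 had contact in at least 2 cells. In all, 1637 bins were contacted in exactly 1 cell after thinning, and 921 of these had no contact at full depth. The list of individual bins changed to this extent in 1 random draw at lower depth. The parts of depth and of the draw itself were not told apart. The statements below are about the bins as a class.

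Single-cell bins had a median distance of 0.9 Mb (quartiles 0.4 and 2.0 Mb) to the nearest bin contacted in at least 26 of the 51 cells, called a frequent bin here. The median was 1.2 Mb (quartiles 0.4 and 3.2 Mb) over all bins contacted in fewer than 26 cells, single-cell bins included, and 2.2 Mb (quartiles 1.0 and 4.8 Mb) for the 9935 bins contacted in no cell. The distance fell step by step with the number of cells, to 0.7 Mb for the 702 bins contacted in 2 cells, 0.6 Mb for 3 to 5 cells and 0.3 Mb for 6 to 25 cells. Contact classes and frequent bins come from the same calls, so these distances are a description.

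**Figure D1:**
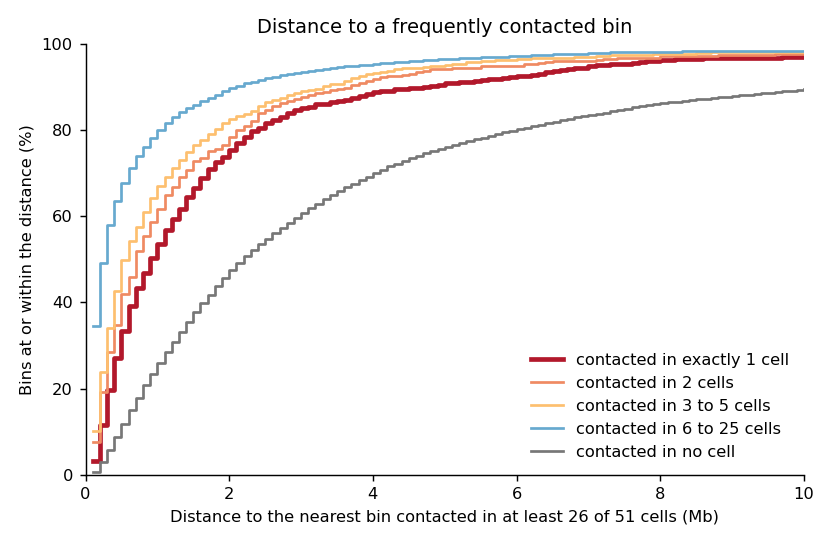
Cumulative share of bins (y axis, %) at or within a distance (x axis, Mb) of the nearest bin contacted in at least 26 of 51 cells, with 1 line per class of bins by their number of cells in contact. The line of bins contacted in exactly 1 cell lies well above that of bins contacted in no cell and just below that of bins contacted in 2 cells, with medians of 0.9, 2.2 and 0.7 Mb.

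A position beside a frequent bin was rare, however. Only 42 single-cell bins (3.26%, 95% Wilson interval 2.42% to 4.37%) were directly next to a frequent bin. The share was 0.624% for bins contacted in no cell, 7.55% for 2 cells, 10.1% for 3 to 5 cells and 34.2% for 6 to 25 cells. Over all bins contacted in fewer than 26 cells the 10th percentile of distance was 0.1 Mb, against 0.2 Mb for single-cell bins. Within 0.5 Mb lay 423 single-cell bins, or 32.8% (30.3% to 35.4%). For all bins contacted in fewer than 26 cells this share was 29.8%, so the share of the single-cell bins was close to it. It was 11.1% for bins with no contact and 66.9% for bins contacted in 6 to 25 cells. A tail reached far from any frequent bin, with 115 single-cell bins (8.92%) beyond 5 Mb. The share was 22.5% for bins contacted in no cell, 5.70% for 2 cells, 4.86% for 3 to 5 cells and 3.46% for 6 to 25 cells. Over all bins contacted in fewer than 26 cells the 90th percentile of distance was 7.3 Mb, against 4.8 Mb for single-cell bins. On chromosome 19 and on 22:9 no bin was frequent, and the 19 single-cell bins there have no distance.

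The rule was also applied to part of the cells, split by number, and the bins it chose were read in the cells left out. The 1344 bins contacted in exactly 1 of the 25 odd-numbered cells were read in the 26 even-numbered cells. Of these bins, 43.9% had no contact in the even-numbered cells, 28.6% had contact in 1 and 27.5% in at least 2. The 43.9% are 590 bins, and only these belong to the single-cell bins described here. Of the 10872 bins with no contact in odd-numbered cells, 91.4% had none in the even-numbered cells either. The mean contact in even-numbered cells was 4.14% for the first set and 0.452% for the second. Chosen in the even-numbered cells, 1496 such bins had a mean contact of 4.30% in the odd-numbered cells, against 0.476% for the 10779 bins with none. Of the 1496, the 699 with no contact in the odd-numbered cells are the other single-cell bins. In both directions, bins marked by exactly 1 cell were contacted more often in the cells left out than bins marked by no cell. This holds for bins chosen in part of the cells. It cannot be asked of the single-cell bins themselves, which by the rule have no contact in any other cell. All cells share the same bins, genome and protocol, so this compares bins within 1 clone.

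The contact of the supplying cell, that is, the 1 cell in contact at the bin, was joined to a frequent region in a minority of cases. An uninterrupted run of contacted bins in that cell joined the single-cell bin to a frequent bin for 194 of the 1289 (15.1%, Wilson interval 13.2% to 17.1%). Over the 43 cells that supplied at least 10 of these bins the share was 12.9% ± 9.30 (SD, n = 43 cells), from 0 to 33.3%. The value depends on the settings: it was 7.76% after thinning, 7.19% for the bins where no other cell reached an OE of 0.5, 8.84% with frequent set at 80% of cells, 23.0% with it set at 20%, and 40.1% in 500 kb bins. Contacts in bins shared by 2 cells reached a frequent bin in 21.0% of cases, those shared by 3 to 5 cells in 26.7% and those shared by 6 to 25 cells in 51.5%.

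Reach fell with distance, in part by definition, since a join needs every bin in between to be in contact in the supplying cell. Of the 42 single-cell bins next to a frequent bin, 41 were joined to it in the supplying cell. At 0.2 to 0.5 Mb 139 of 381 (36.5%) were joined, and at 0.6 to 1.0 Mb 14 of 256 (5.47%). None of the 591 bins farther than 1 Mb was joined, which by the limit of 3 counts allows a share of up to 0.508%. That limit takes bins as independent, which they are not, since they share runs and cells. Within the bins that were joined, the way along the run to the frequent bin had a median of 0.2 Mb and at most 1.2 Mb.

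Most joined bins formed a 1-sided extension. For 173 single-cell bins (13.4%) the run reached frequent bins on 1 side only, in 156 runs of 40 cells, with a median run length of 1.0 Mb and a longest run of 10.1 Mb. For 21 bins (1.63%) it reached frequent bins on both sides, so that the supplying cell alone bridged a gap between them. These gaps were 0.1 to 1.5 Mb wide, with a median of 0.5 Mb. They were bridged in 17 runs of 8 cells, and cell 17 supplied 7 of the 21 bins.

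The other 1095 bins had no link to a frequent region, and 571 of them (44.3% of all single-cell bins, Wilson interval 41.6% to 47.0%) had no contacted neighbour at all in the supplying cell. This share of lone bins was 37.7% for contacts in bins shared by 2 cells, 20.3% for 6 to 25 cells and 3.83% for frequent bins. A further 438 (34.0%) sat in runs that also held bins contacted in 2 to 25 cells. In these runs the most widely shared bin had a median of 5 cells, and the run had a median length of 0.3 Mb. The last 86 (6.67%) made up 39 runs of single-cell bins alone, of which 32 were 2 bins long, 6 were 3 and 1 was 4. The median distance to a frequent bin was 1.1 Mb for lone bins, 1.6 Mb in runs of single-cell bins alone and 1.2 Mb in runs with bins of 2 to 25 cells. It was 0.2 Mb for the bins in runs that reached a frequent bin on 1 side and 0.2 Mb for those that bridged a gap.

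The bins around a single-cell bin were read in the supplying cell and in the other 50 cells. The rule puts the supplying cell in contact and all others out of contact at the central bin, and neighbouring bins go together, so a higher value in the supplying cell follows in part from the choice and is given as a description. Directly beside it, 35.3% of 2562 measured bins were in contact in the supplying cell, against a mean of 5.23% over the other 50 cells. This difference of 30.1 percentage points was 26.6 ± 12.2 (SD, n = 43 cells) when taken per supplying cell with at least 10 single-cell bins, with a range of 2.28 to 50.8 points. It was 16.4 points after thinning. Where neighbours that were themselves single-cell bins were left out, a choice made after the data were seen, the difference was 25.8 points. At 0.5 Mb the values were 34.7% in the supplying cell and 18.3% in the other cells, at 1.0 Mb 35.6% and 25.1%, and at 2.0 Mb 40.0% and 31.8%. In the other cells contact rose steadily away from the single-cell bin, while in the supplying cell it stayed between 33.7% and 40.0%. The difference at 2.0 Mb, 8.26 points, was smaller than that next to the bin. The nearest frequent bin was in contact in the supplying cell for 83.9% of 1270 single-cell bins, against 63.2% in the other cells. The part that a cell's overall contact share plays in these differences was not tested.

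**Figure D2:**
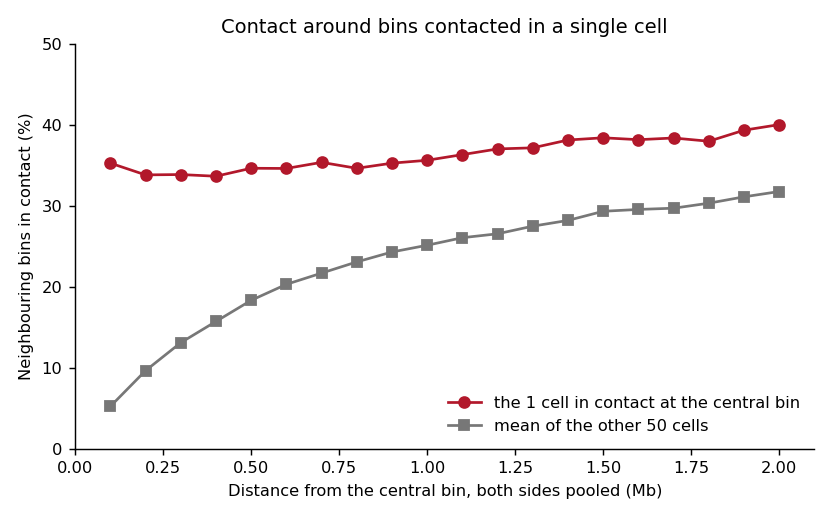
Share of bins in contact (y axis, %) at distances of 0.1 to 2.0 Mb from a single-cell bin (x axis, Mb, both sides pooled), in the supplying cell (circles) and as the mean of the other 50 cells (squares). Beside the central bin, where the rule keeps the other cells out of contact, the values are 35.3% and 5.23%, and at 2.0 Mb they are 40.0% and 31.8%.

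Next to lone bins there was signal below the contact threshold, and the same limit of the rule holds for it. The bins beside them had a mean OE of 0.267 in the supplying cell, against 0.111 in the other cells, whose values also include contacts. In the supplying cell 44.1% of these 1130 neighbours had no read, against 78.9% in the other cells. An OE from 0.5 to under 1 was found in 24.5% of them in the supplying cell, against 4.13% in the other cells. The rule for a lone bin keeps its neighbours in the supplying cell below 1, so the 2.21% of values at 1 or above in the other cells have no counterpart there.

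The signal of single-cell contacts was weak. Their median OE was 1.29 (quartiles 1.12 and 1.61), against 1.33 for contacts in bins shared by 2 cells, 1.38 for 3 to 5 cells, 1.64 for 6 to 25 cells and 2.57 for frequent bins. An OE of at least 2 was found for 13.7% of single-cell contacts, against 69.5% of contacts in frequent bins. Per cell, the median OE of single-cell contacts was 1.31 ± 0.129 (SD, n = 43 cells) and that of contacts in frequent bins 2.63 ± 0.221 (n = 51 cells). The OE chose the bins, so this order of signal is a description and not independent of the rule. A single-cell contact rested on a median of 8 reads (quartiles 5 and 12), and a contact in a frequent bin on 16.

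**Figure D3:**
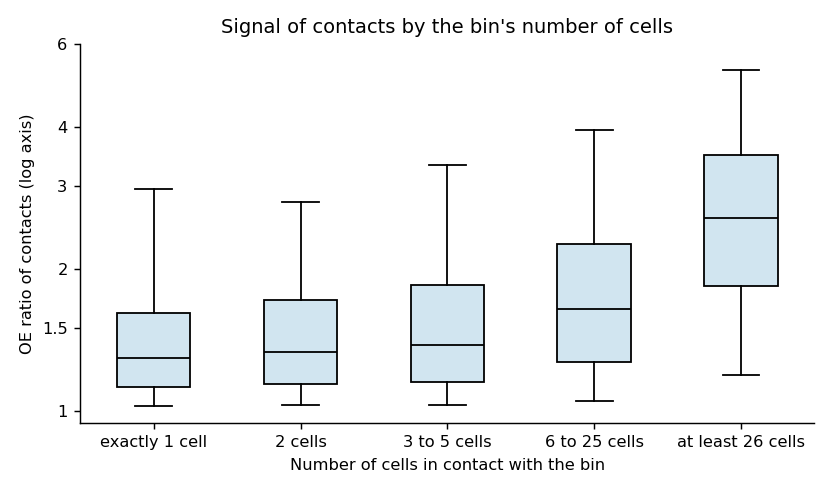
OE ratio of contacts (y axis, log scale) by the number of cells in contact with the bin (x axis), with boxes from the lower to the upper quartile, a line at the median and whiskers at the 5th and 95th percentiles over contacts. The median is 1.29 for bins contacted in exactly 1 cell and 2.57 for bins contacted in at least 26 cells.

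Many single-cell bins were just over the threshold, and most had signal in other cells. An OE from 1 to under 1.1 was found in 272 of them (21.1%). Just outside the rule lay 316 bins with no contact whose highest OE was 0.9 to under 1, and 237 bins with 2 contacts whose weaker OE was 1 to under 1.1. The median distance to a frequent bin was 0.8 Mb for the 272, 0.9 Mb for the 316 and 0.7 Mb for the 237. The highest OE among the other 50 cells had a median of 0.739 (quartiles 0.532 and 0.885), it lay at 0.5 or above in 997 bins (77.3%), and it was 0 in 50 bins. In a typical single-cell bin 13 of the 51 cells had at least 1 read (median, quartiles 8 and 18), against a median of 2 cells in bins contacted in no cell and 50 in frequent bins. The mean OE of the other cells was 0.0807 in single-cell bins, against 0.0195 over all cells in bins with no contact. At a threshold of 0.5, 292 of the 1289 bins were in contact in 1 cell, 249 in 2 cells and 249 in at least 6, with a median of 3 cells. By an OE of at least 2, no other cell at 0.5 and an expected number of at least 100, 16 bins (1.24%) stood apart. These bins came from 13 cells, 3 of the bins were lone, and 3 were joined to a frequent bin. The last condition left out 45 of the 50 bins in which no other cell had a read. In such bins the recovered expected number may be too low, so the 16 are a count under these conditions only.

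For a small set of single-cell bins the recovered expected number was low. It was under 100 in 59 of them (4.58%, Wilson interval 3.56% to 5.86%), against 2.18% of all bins with a read. The share was similar in bins contacted in 2 cells (3.56%), 3 to 5 cells (4.70%) and 6 to 25 cells (5.25%), and 1.09% in frequent bins. Among the 7985 bins with a read that were contacted in no cell it was 0.802%. With a low expected number 1 read can already give an OE of at least 1, so that last share is low in part by the rule. In 45 of these 59 bins the supplying cell was the only cell with a read, in 6 there were 2 cells with reads and in 8 at least 3. Where few cells have reads, reads and expected number are known up to a common factor and are given as the smallest whole numbers that fit, so the true numbers may be higher. Among the 1211 single-cell bins with reads in at least 3 cells, 8 had an expected number under 100. All 19 single-cell bins with an OE of at least 10, up to 149, had reads in 1 cell only, and they were among the 59, of which 43 were lone. Without these 59 bins, the highest OE was 6.45, the median 1.29 and the share of lone bins 42.9%. The median expected number of single-cell bins was 314, as it was for bins contacted in no cell. Next to a bin with no value lay 1.16% of single-cell bins, against 0.952% of all bins, and within 5 Mb of the outermost measured bins of a chromosome 7.60%, against 8.16% of all bins and 14.0% of bins contacted in no cell.

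Cells supplied very different numbers of these bins. A cell supplied 25.3 ± 19.8 (SD, n = 51), with a median of 20. Cell 26, the deepest, supplied 100 at 316463 reads, cell 17 supplied 87 at 192124 reads and cell 46 supplied 63 at 285619 reads. At the other end, cell 37 supplied none at 205333 reads, although it had 7623 contacts, and 0 of 7623 allows a share of up to 0.0394%. That limit takes contacts as independent, which they are not, since they come in runs. Cell 29 supplied 3 at 136411 reads, and cells 2 and 6 supplied 4 each, at 116802 and 123119 reads. The 5 cells that supplied most gave 353 of the 1289 bins (27.4%), and the 10 that supplied most gave 565 (43.8%). The 10 that supplied fewest gave 57. Single-cell bins made up 1.03% of the contacts of cell 26 and 0.0421% of those of cell 29.

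**Figure D4:**
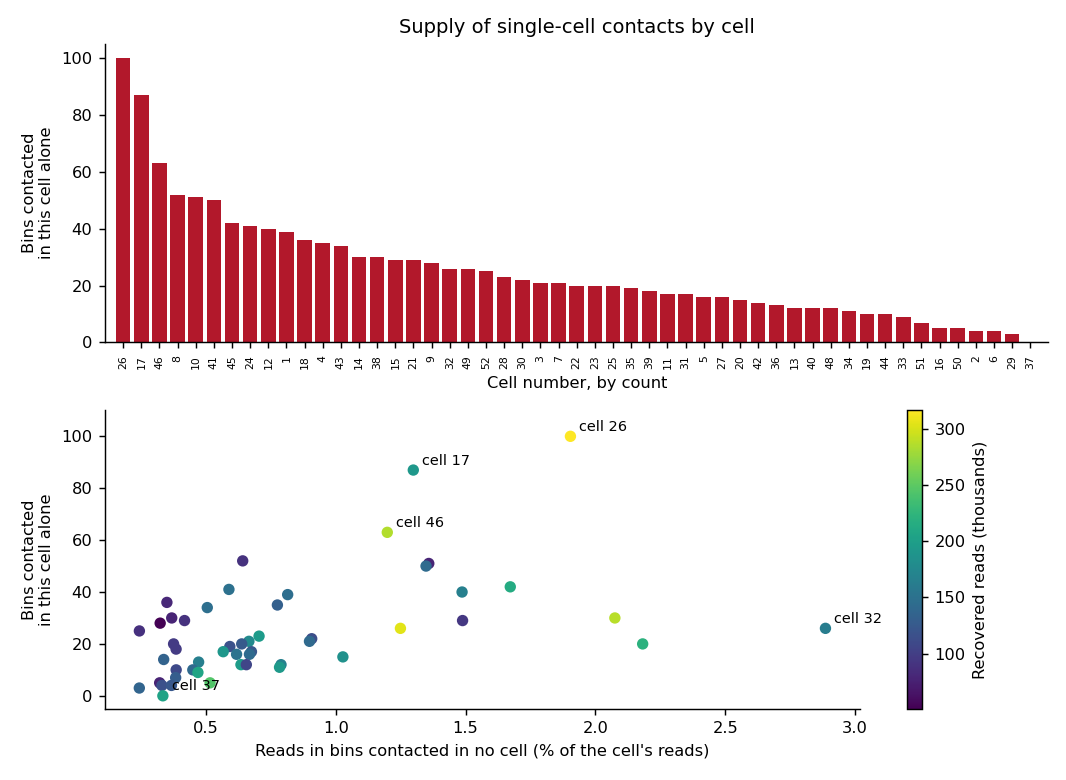
Number of bins contacted in each cell alone (upper panel, y axis, bars in order of count, cell numbers on the x axis) and the same number (lower panel, y axis) against the share of the cell's reads that fell in bins contacted in no cell (x axis, %), with points coloured by recovered reads. Cells 26, 17 and 46 supplied 100, 87 and 63, cell 37 supplied none, and cell 32, with the highest share of such reads, supplied 26.

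The number supplied was set beside 3 other measures of a cell. Over the 51 cells, which share a protocol and 1 clone, its correlation with recovered reads was 0.258 (Pearson's r) and 0.0132 (Spearman's rho), and r was 0.0656 without cells 26 and 49, the farthest from the median. With the contact share of the cell r was 0.366 and rho 0.187, and r was 0.225 without cells 26 and 42. With the share of the cell's reads that fell in bins contacted in no cell, which ranged from 0.243% to 2.89%, r was 0.484 and rho 0.547, and r was 0.639 without cells 23 and 32. These bins lie outside the single-cell set, but both were sorted by the same threshold. These 3 relations describe the cells at hand and were not tested. When each cell was reduced to 50978 reads, the numbers supplied ranged from 3 to 133, with a median of 24, and had a rho of 0.804 with those at full depth. Cell 32 then supplied most, with 133 against 26 at full depth, cell 26 supplied 116, cell 17 supplied 72 and cell 37 supplied 5.

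Cells also differed in the kind of contact they supplied. Of the 87 bins of cell 17, 26 (29.9%) were joined to a frequent bin and 19 (21.8%) were lone, and their median distance to a frequent bin was 0.6 Mb. Of the 100 bins of cell 26, 18 (18.0%) were joined and 32 (32.0%) lone, at a median distance of 1.15 Mb. Of the 63 bins of cell 46, 12 (19.0%) were joined and 23 (36.5%) lone. Among cells with at least 10 such bins, the share of lone bins was lowest in cell 41 (18.0%) and highest in cell 21 (89.7%), with a mean of 48.4% ± 18.2 (SD, n = 43). Cell 21 and cell 41 had 1.49% and 1.35% of their reads in bins contacted in no cell, and their depth was 93792 and 142540 reads. They were picked as the extremes, and the cause of their different shares of lone bins was not tested. The counts per cell are small, with 26 of 29 lone in cell 21 and 9 of 50 in cell 41.

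Single-cell bins that lay close together often came from the same cell. Of 239 pairs of adjacent single-cell bins, 119 (49.8%) were supplied by 1 cell. The share fell to 35.7% of 543 pairs at 0.2 to 0.5 Mb, 20.5% of 453 at 0.6 to 1.0 Mb, 8.74% of 2688 at 1.1 to 5.0 Mb and 4.19% of 8419 at 5.1 to 20.0 Mb. For 777850 pairs on different chromosomes it was 2.98%. Without the bins supplied by cells 26, 17 and 46 the shares were 51.9% for adjacent bins and 2.64% between chromosomes. Pairs share bins and are not independent, so no interval is given. In all, the 1289 bins formed 1137 separate runs, and no run held more than 6 of them.

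**Figure D5:**
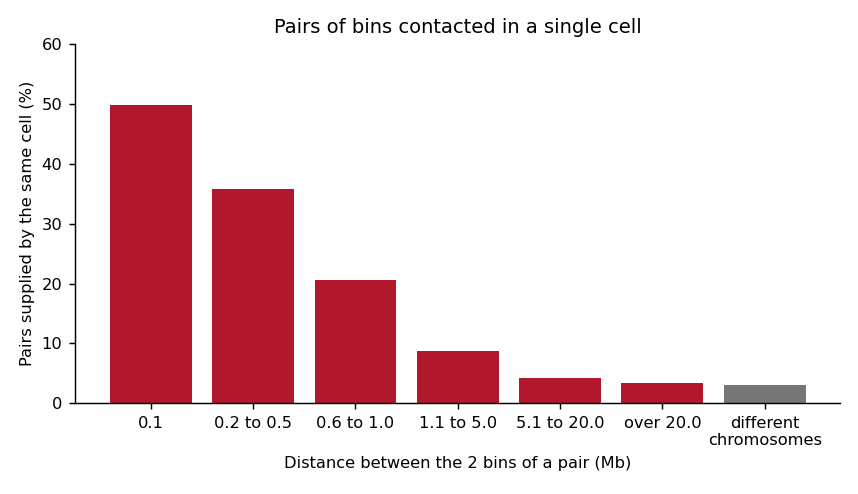
Share of pairs of single-cell bins that were supplied by the same cell (y axis, %) by the distance between the bins of a pair on the same chromosome (x axis, Mb), with pairs on different chromosomes in grey. The share is 49.8% for adjacent bins, 4.19% at 5.1 to 20.0 Mb and 2.98% between chromosomes.

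A few cells drew much of their supply from 1 chromosome. The 508 combinations of cell and chromosome with any such bin held 11 with at least 10, which together gave 133 bins (10.3%). Of these 11, 5 belonged to cell 26 and 3 to cell 17, the cells that supplied most, and each held only 10.0% to 12.0% of that cell's bins. The highest was cell 24 on chromosome 6, with 20 bins, or 48.8% of all that this cell supplied. These regions were picked out after their values were seen. A group of 7 of the 20 lay in the first 4 Mb of the chromosome, between 100001 and 3900000 (hg19), at 4.4 to 8.1 Mb from a frequent bin, with OE values of 1.08 to 3.22 in cell 24. Another 7 lay within 0.8 Mb, between 105200001 and 106000000, with OE values of 1.09 to 3.94 and 6 to 26 reads in cell 24. In each of those 7, the highest of the other 50 cells had an OE of 0.302 to 0.774, and 40 to 47 of them had no read. Cell 24 was in contact in 39.2% of the measured bins of chromosome 6, against a mean of 36.1% over all cells. On chromosome 1, cell 4 supplied 16 bins (45.7% of its 35). All 14 bins of cell 42, the cell with the lowest contact share (23.2%), lay on chromosomes 3 (6 bins) and 4 (8 bins), where it was in contact in 42.8% and 46.8% of bins, against means of 37.2% and 43.6% over all cells.

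Single-cell bins were found on all 21 chromosomes and joined chromosomes that had values, which leaves out chromosome 8. Chromosome 15 had the highest share of single-cell bins, 45 of 520 (8.65%, Wilson interval 6.53% to 11.4%), followed by chromosome 12 (86 of 1311, 6.56%, 5.34% to 8.03%) and chromosome 5 (109 of 1766, 6.17%, 5.14% to 7.39%). The lowest were chromosome 19 (15 of 560, 2.68%, 1.63% to 4.37%), the joined chromosome 22:9 (4 of 148, 2.70%, 1.06% to 6.74%) and chromosome 14 (31 of 881, 3.52%, 2.49% to 4.95%). Of the 45 on chromosome 15, cell 46 supplied 11 and cell 17 supplied 10. With the 11 bins of cell 46 taken off and the rule not applied anew, the share of chromosome 15 was 6.54%. In these cells chromosome 15 was in contact in 42.9% (cell 46) and 44.6% (cell 17) of its bins, against a mean of 23.9% over all cells. On chromosome 12, in contrast, 35 cells supplied the bins and none gave more than 7. Chromosome 19, where 86.8% of bins were contacted in no cell, drew its 15 from 12 cells, and 11 of them were lone. The intervals treat neighbouring bins as independent, which they are not.

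The runs made only of single-cell bins are shown by the 1 run of 4 bins and by the first 4, in order of chromosome and position, of the 6 runs of 3 bins. On chromosome 13, cell 26 was in contact from 59100001 to 59500000 with a mean OE of 1.40 and 71 reads, 1.1 Mb from a frequent bin. In the other 50 cells the highest OE in any of its 4 bins was 0.913, the median was 1 read over the whole run, and 22 cells had none. On chromosome 1, cell 11 was in contact from 117700001 to 118000000 with a mean OE of 2.09 and 35 reads, while 27 of the other cells had no read there and the highest OE was 0.940. On chromosome 3, cell 26 was in contact from 17000001 to 17300000 with a mean OE of 1.59 and 68 reads, and 40 of the other cells had none. Also on chromosome 3, cell 42 was in contact from 133300001 to 133600000, 3.7 Mb from a frequent bin, with a mean OE of 2.88 and 52 reads. There 32 of the other cells had no read and the highest OE was 0.993. The fifth lay on chromosome 7, where cell 30 was in contact from 1600001 to 1900000 with a mean OE of 1.59 and at least 22 reads, since few cells have reads there. In that run 48 of the other 50 cells had no read, their highest OE was 0.250, and no bin within 1 Mb of its first bin was contacted in any other cell.

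The strongest single-cell contacts, among bins of expected number at least 100, came from 4 cells. Cell 43 had an OE of 6.45 (41 reads) on chromosome 5 at 108800001 to 108900000, 0.4 Mb from a frequent bin and in a contact run of 5.8 Mb that reached it, while 31 other cells had no read and the highest had an OE of 0.951. Cell 41 supplied a pair of them, with an OE of 5.97 (43 reads) on chromosome 10 at 79200001 to 79300000 and 5.23 (28 reads) on chromosome 14 at 68500001 to 68600000. In the first of these 25 other cells had no read, in the second 38. Cell 42 had an OE of 5.89 (36 reads) on chromosome 3 at 133400001 to 133500000, the middle bin of the run described above. Cell 24 had an OE of 4.96 (27 reads) on the joined chromosome 9:22 at 94700001 to 94800000 of the joined sequence, 6.9 Mb from a frequent bin, where 46 other cells had no read and the highest had an OE of 0.636.

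The 5 single-cell bins farthest from a frequent bin all lay on chromosome 1 between 3900001 and 5100000, at 43.8 to 44.9 Mb. Cell 4 supplied 4 of these 5 as lone contacts within 1.1 Mb, and cell 8 the fifth, with an OE of 2.02 (10 reads). Cell 4 had an OE of 2.63 at 3900001, in a bin where no other cell had a read. That value rests on 1 recovered read and an expected number of 22, the smallest whole numbers that fit. The next values of cell 4 were 1.58 at 4300001 (8 reads), 1.29 at 4600001 (8 reads) and 1.81 at 4900001 (10 reads). In the last 3 of these bins 39 to 45 of the other 50 cells had no read, and their highest OE was 0.434 to 0.819. No bin within 1 Mb of the first was contacted in any other cell, and around the other 4 the share was 0.571% to 0.762%.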

How the data were processed

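Single-cell Lamin B1 DamID was measured in KBM7 cells of clone 14. The authors deposited ratios of observed to expected signal (OE) per 100 kb bin and cell on hg19, with cutadapt and Bowtie2 2.1.0 named in the submitters' processing notes. The sources used here do not say how the expected signal was made or how duplicates were treated. Positions on 9:22 and 22:9 count along the joined sequence.

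Of 30376 bins, 26584 had a value in every cell. Values above 0 could be written as whole reads, scaled by a factor of the cell and divided by a whole expected number of the bin (100% came out whole within 0.02 reads). Reads never exceeded that number, so they may be distinct sites. In bins with reads in few cells the recovered numbers are the smallest possible. The recovery and the run classification were tested on simulated data. Runs do not cross bins without a value, and distances are bin to bin. Wilson intervals are at the 95% level and cover counting error only. They treat bins as independent, although bins share runs and cells. PCR reads have no molecular identifiers. No test was run, because the rule used the same values and the cells are 1 sample. Analyses used Python 3.11.15, numpy 2.4.6 and scipy 1.17.1.

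Named regions are the 5 longest runs made only of single-cell bins (ties by order of chromosome and start), the 5 highest OE values at an expected number of at least 100, and the 5 bins farthest from a frequent bin. Named cells are the 3 that supplied most and the 3 that supplied fewest, and named chromosomes those with the 3 highest and 3 lowest shares. Regions and cells named beyond these were chosen after their values were seen. The rule, these lists and the alternatives were chosen with earlier results of these data known. The genes in these bins were not analysed here.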

Additional observations from a re-analysis of the deposited data

Results flagged for a closer look

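On chromosome X, which the rule leaves out, 55 of 1487 measured bins (3.70%) were contacted in exactly 1 cell. They were picked out as signal in bins not used above. Their median OE was 1.25 and their median distance to a frequent bin 0.5 Mb, and no cell supplied more than 4 of them.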

How the results depend on the processing

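No paired analysis was possible because there is 1 group. A pair of settings was added after the data were seen, leaving out neighbours that are themselves single-cell bins and leaving out the 3 cells that supplied most. Apart from leaving out single cells, 118 values were recomputed under the alternatives. Of these, 97 stayed within 1 SD between cells and 21 moved further. For the count the limit was 1.5 times, and for the 5 cells that supplied most it was the Wilson interval. Only the neighbour difference could change sign, and it did not. The SD is wide for some values: a joined share of 7.76% after thinning, against 15.1%, counts as within it (9.30 points). With an OE of at least 0.5, lone bins made up 64.0%, the median OE was 0.651 on 4 reads, and the 5 cells that supplied most gave 37.6%. With an OE of at least 2, the median OE was 2.43 on 14 reads. These OE shifts follow from the threshold itself, and for the other values here the cause was not tested unless stated. After thinning to 50978 reads, lone bins made up 64.9%, neighbours differed by 16.4 points between the supplying and the other cells, and contacts rested on 3 reads, which follows from the thinning. Where no other cell reached an OE of 0.5, 292 bins were left, at a median of 1.6 Mb from a frequent bin, with 31.8% from the 5 cells that supplied most. With frequent set at 80% of cells the median distance was 1.8 Mb. In 500 kb bins there were 227 single-cell bins at 1.5 Mb, resting on 41 reads. Of these, 40.1% were joined to a frequent bin and 37.4% came from the 5 cells that supplied most. The 5 cells that supply most were taken anew in each setting. Their share was 42.9% among odd-numbered cells alone and 43.5% among even-numbered cells alone, where fewer cells are left to share the supply. It was 23.4% without the 3 cells that supplied most. Leaving out each cell in turn moved no value this far, with 1274 to 1305 single-cell bins, distances of 0.9 to 1.0 Mb, 43.1% to 44.9% lone, 14.6% to 16.3% joined to a frequent bin and a neighbour difference of 29.3 to 31.0 points.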
